A study of Mus musculus with 6 samples.

Results

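A set of 10 genes carried probes on the array that gave unlike Prss55-/- minus wt differences in mouse testis, and their probes are described here 1 by 1. The members, Spire1, Lrrc8e, Sptb, Fbln1, Ocstamp, Micall1, Zfp386, Cog5, Oxa1l and Scara5, were chosen for that difference itself, so the values of their probes are a description and no test was made on them. The array files name 30 probes for these 10 genes, out of 41174 probes on the array, and 28 of the 30 passed the filter on dim signals. The array holds 6574 genes with 2 or more probes past that filter.

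Total RNA of whole testis was measured with a single dye on 6 arrays, 1 per mouse, from 3 Prss55-/- and 3 wt males. All mice were 6 to 8 weeks old and of a mixed 129Sv/C57BL/6 strain. In the Prss55-/- mice Prss55, a serine protease gene of the testis, had been disrupted by homologous recombination, with heterozygous mice intercrossed to give the genotypes. The 3 Prss55-/- arrays shared slide 1, while the wt arrays lay on slides 2 and 3, so genotype and slide cannot be told apart. The scan dates split the arrays in the same way, so genotype and scan cannot be told apart either. Each value below is a log2 signal, quantile-normalized over the 6 arrays, and each difference is Prss55-/- minus wt on that scale, where 1 unit is 2-fold.

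The 10 genes belong to unrelated processes. Spire1 nucleates actin filaments together with formins, Micall1 acts in the recycling of endosomes, and Cog5 is a subunit of the complex that tethers vesicles at the Golgi. Lrrc8e is a subunit of the volume-regulated anion channel, Sptb is the beta-spectrin of the red cell membrane skeleton, Scara5 is a scavenger receptor that binds ferritin, and Ocstamp is a membrane protein needed for the fusion of osteoclast precursors. Fbln1 is a secreted glycoprotein of the extracellular matrix, Oxa1l inserts proteins into the inner membrane of mitochondria, and Zfp386 is a Kruppel-type zinc finger gene. An array probe reads only the stretch of transcript that it matches, so that probes at different places of a gene can read different transcripts of it. Whether a transcript ends, starts or is spliced between a pair of probes was not tested, since no annotation of the arrays' build was used here.

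The probes are 60 nucleotides long. Those that carry the contrast within a gene are printed below as the array files give them, 5′ to 3′, whole or as a stretch of 30 bases, and they are numbered from the 5′ end of the gene. For Zfp386 they show the pair of outer probes that were higher in Prss55-/- testis and the pair of inner probes that were lower. For the other 4 genes they show neighbouring probes that carry 1 common RefSeq transcript or lie close together. Capitals mark AATAAA, the hexamer best known as a polyadenylation signal.
Zfp386 probe 2: catagcctgtgcttttcataagcagtacaa
Zfp386 probe 4: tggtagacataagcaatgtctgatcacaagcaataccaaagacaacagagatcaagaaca
Zfp386 probe 5: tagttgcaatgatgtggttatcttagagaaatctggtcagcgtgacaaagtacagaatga
Zfp386 probe 6: aagggctagagtagtggtgtgaaaattgtg
Lrrc8e probe 1: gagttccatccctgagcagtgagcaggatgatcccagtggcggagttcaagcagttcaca
Lrrc8e probe 2: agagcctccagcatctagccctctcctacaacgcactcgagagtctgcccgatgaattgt
Lrrc8e probe 3: ggagtgggatttccaacctttcccaacaag
Oxa1l probe 1: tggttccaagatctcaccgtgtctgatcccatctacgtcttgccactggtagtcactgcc
Oxa1l probe 2: gcaatttccttacgaagcagatatactgaa
Oxa1l probe 3: cagccatactttaagaagaagctgaagtgt
Fbln1 probe 1: aattttgttcccttttctacctgtgagcta
Fbln1 probe 2: ttttttaaccaacggggctctttgtgtttc
Ocstamp probe 1: gcactcctccaatttacaagcctttgagaa
Ocstamp probe 2: ctagacttctgacgtttagtgAATAAAaat

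Over the 28 tested probes of the 10 genes, the 3 Prss55-/- and the 3 wt arrays did not overlap for 20, of which 15 were higher and 5 lower in Prss55-/- testis. Of all 28606 tested probes, 26.3% had genotypes that did not overlap, 13.4% with Prss55-/- higher and 12.9% with it lower. Of the 28 probes, 10 had measured means 2-fold or more apart, 8 higher and 2 lower, against 0.818% of all tested probes. For 2 of the 8 higher ones, Spire1 probe 2 and Lrrc8e probe 1, wt was not well above background and a 2-fold difference is not shown, which leaves 8 probes, 6 higher and 2 lower. Nothing is read from these shares, since the genes were chosen by the same contrast.

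The spread of a gene, its highest minus its lowest probe difference, was 1.18 at the median of the 10 genes as measured, 1.15 with those 2 probes at their bounds, and 0.11 at the median of all 6574 genes with 2 or more tested probes as measured. Among the 10 genes, 7 had a measured spread of 1 log2 unit or more, as had 60 of the 6574 (0.913%), and 6 reached it at the bounds, since Spire1 then has 0.20. With probes kept only if well above background on all 6 arrays, these counts were 5 and 34. In 6 of the 10 genes some probes lay above 0 and others below it. Only Zfp386 and Oxa1l among these had, on both sides of 0, probes whose genotypes did not overlap. After background correction by normexp in place of the scanner's own, 1 of the 10 genes reached that spread, Zfp386 with 1.13. The widest difference of each gene was then 1.03 in Micall1, 0.38 to 0.67 in the other 7 genes where it was higher in Prss55-/- testis, -0.77 in Oxa1l and -0.68 in Scara5. The normexp correction added an offset of 50 to each signal, which by itself draws the log2 differences of dim probes towards 0. How much of the smaller values under normexp comes from the offset was not tested.

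**Figure D1:**
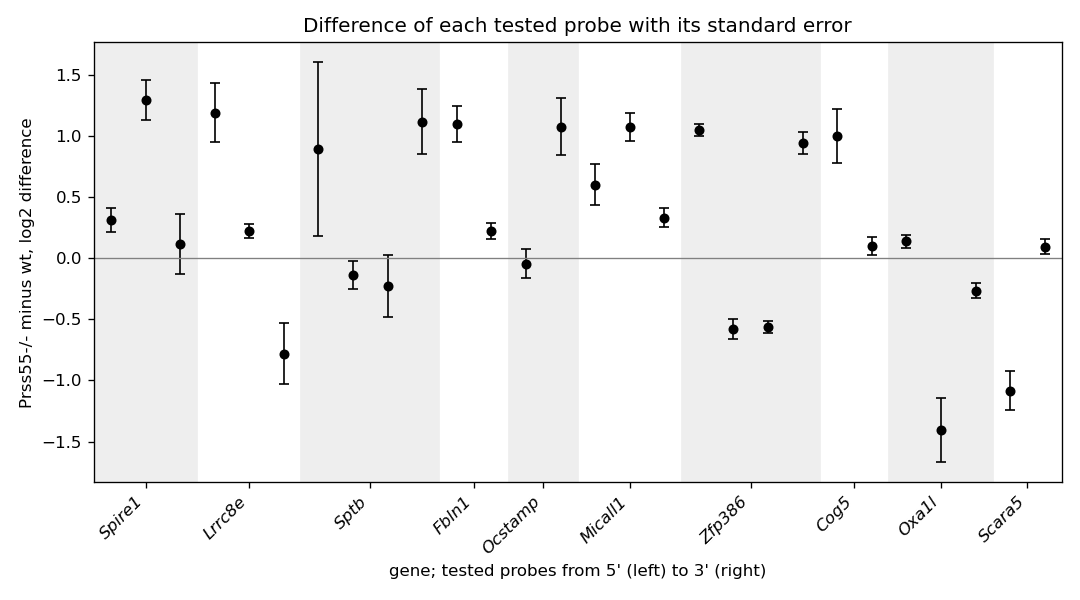
Prss55-/- minus wt log2 difference (vertical axis) of each of the 28 tested probes, grouped by gene and ordered 5′ to 3′ within it, with bars for the standard error. Zfp386 has 2 probes near 1 and 2 near -0.6, while the probes of Oxa1l run from 0.14 to -1.41.

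The odd probe stood alone in its transcript in 4 genes, Zfp386, Scara5, Cog5 and Spire1, in the sense that no other tested probe of the gene carries a RefSeq accession in common with it. In the other 6 it shares one. Zfp386 has 6 probes over 11930 bases of the plus strand of chromosome 12. Probe 2 (mm9 chr12:117293390-117293449, GenBank AK043310) read 7.33, 7.28 and 7.28 on the Prss55-/- arrays and 6.23, 6.21 and 6.31 on the wt arrays, a difference of 1.05 (standard error 0.050) or 2.07-fold. Probe 6 (chr12:117301531-117301590, AK220544) read 7.32, 7.11 and 7.19 against 6.40, 6.13 and 6.26, a difference of 0.94 (standard error 0.091). All Prss55-/- arrays lay above all wt arrays at both outer probes.

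The inner probes of Zfp386 were lower in Prss55-/- testis, and both carry the RefSeq transcript NM_001004066. Probe 4 (chr12:117297524-117297583) read 7.44, 7.70 and 7.62 on the Prss55-/- arrays and 8.12, 8.13 and 8.25 on the wt arrays, a difference of -0.58 (standard error 0.082). Probe 5 (chr12:117297995-117298054) read 9.33, 9.36 and 9.25 against 9.88, 9.91 and 9.83, a difference of -0.56 (standard error 0.052). These probes, 411 bases apart, differed from each other by 0.01 in their difference, while probe 2 and probe 4, 4074 bases apart, differed by 1.63. Probes 4 and 5 each keep 1 reading frame free of stop codons, and probes 2 and 6 keep none. The remaining probes 1 and 3 were well above background on 0 of 6 arrays and were not tested.

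The spread of Zfp386 varied less than that of the other 9 genes when arrays were left out. It lay between 1.61 and 1.70 with each array left out in turn, and the within-genotype standard deviation of its tested probes was 0.043 to 0.12. Over the 6 arrays the correlation of probe 2 with the other tested probes of Zfp386 ran from -0.99 to 0.98, as a description over arrays that also differ in genotype.

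Scara5 lies on the plus strand of chromosome 14, 1.67 Mb from Prss55, and its probes carry different RefSeq transcripts 19289 bases apart. Probe 1 (chr14:66363555-66363614, NM_001168318) read 6.45, 6.35 and 6.35 on the Prss55-/- arrays and 7.43, 7.16 and 7.81 on the wt arrays. It was thus 2.12-fold lower in Prss55-/- testis, by -1.09 (standard error 0.16) on the log2 scale, with no overlap. Probe 2 (chr14:66382904-66382963, NM_028903) read 10.84, 10.81 and 10.70 against 10.64, 10.75 and 10.67, a difference of 0.10 (standard error 0.059), and its genotypes overlapped.

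Cog5, on the plus strand of chromosome 12, has probes 73327 bases apart, the longest distance in the set. Probe 1 (chr12:32505534-32505593, GenBank AK041796) read 7.10, 7.12 and 6.59 on the Prss55-/- arrays and 6.14, 6.13 and 5.54 on the wt arrays, a difference of 1.00 (standard error 0.22). Replicate 3 was the lowest array of either genotype there, and the labels do not say whether the number marks a pair of mice. Probe 2 (chr12:32578921-32578980, NM_001163126) read 7.88, 7.91 and 7.70 against 7.66, 7.79 and 7.75, a difference of 0.10 (standard error 0.074) with overlap. Probe 2 keeps 2 open reading frames and probe 1 keeps 0.

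Spire1, on the minus strand of chromosome 18, has its odd probe between the others. Probe 2 (GenBank AK053505) read 5.39, 5.41 and 5.20 on the Prss55-/- arrays and 3.85, 3.86 and 4.40 on the wt arrays. None of the 3 wt arrays was well above background for it, so only a bound can be given, and it was at least 1.20-fold higher in Prss55-/- testis. Its measured means were 5.33 ± 0.11 and 4.04 ± 0.31 (SD, n = 3 each).

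The outer Spire1 probes carry the RefSeq transcripts NM_176832 and NM_194355 in common. Probe 1 read 7.58, 7.47 and 7.40 against 7.18, 6.99 and 7.34, a difference of 0.31 (standard error 0.10), with the lowest Prss55-/- array just above the highest wt array. Probe 3 read 5.57, 6.24 and 6.03 against 5.71, 6.27 and 5.52, a difference of 0.12 (standard error 0.24), and overlapped. With probes kept only if well above background on all 6 arrays, the spread of Spire1 was 0.20 in place of the measured 1.18, since probe 2 is then left out.

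**Figure D2:**
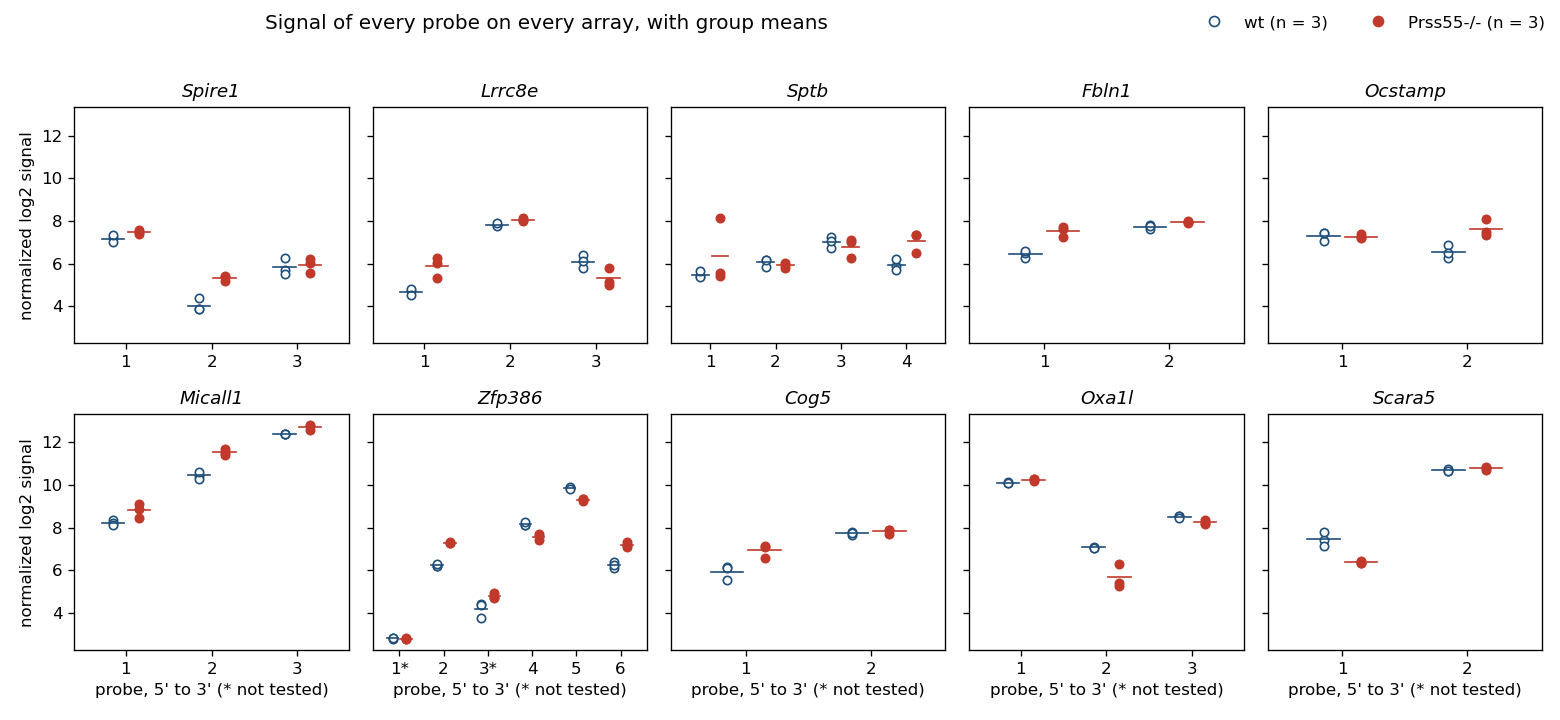
Normalized log2 signal (vertical axis) of all 30 probes on every array, 1 panel per gene and probes from 5′ to 3′, with open circles for the 3 wt arrays, filled circles for the 3 Prss55-/- arrays and lines for group means. The Prss55-/- points of Sptb probe 1 show 1 array at 8.12 above the other 5, and the wt points of Spire1 probe 2 lie near 4.

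In the other 6 genes, Lrrc8e, Sptb, Fbln1, Ocstamp, Micall1 and Oxa1l, the odd probe carries the same RefSeq transcript as another tested probe. The shortest distances were in Ocstamp and Fbln1. Ocstamp, on the minus strand of chromosome 2, has both probes on NM_029021 and 39 bases apart. Probe 1 (chr2:165221059-165221118) read 7.39, 7.18 and 7.23 on the Prss55-/- arrays and 7.08, 7.44 and 7.41 on the wt arrays, a difference of -0.04 (standard error 0.12). Probe 2 (chr2:165220960-165221019) read 8.07, 7.49 and 7.34 against 6.89, 6.27 and 6.51, a difference of 1.08 (standard error 0.23) or 2.11-fold. Probe 1 overlapped between genotypes, and probe 2, which contains the AATAAA printed in capitals, did not. AATAAA, read on the strand printed here, is in 3 of the 30 probes and in 4.78% of all probes of the array.

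The probes of Fbln1, on the plus strand of chromosome 15, lie 83 bases apart on NM_010180. Probe 1 (chr15:85115854-85115914) read 7.26, 7.63 and 7.73 on the Prss55-/- arrays and 6.25, 6.51 and 6.57 on the wt arrays, a difference of 1.10 (standard error 0.15) or 2.14-fold. Probe 2 (chr15:85115998-85116057) read 7.91, 7.99 and 7.94 against 7.61, 7.80 and 7.76, a difference of 0.23 (standard error 0.064). Both Fbln1 probes were thus higher in Prss55-/- testis without overlap, by unequal amounts. The 60 bases of probe 1 take up 61 bases of the genome in the array files.

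Oxa1l, on the plus strand of chromosome 14 and 9.71 Mb from Prss55, has 3 probes on NM_026936 within 1942 bases. Probe 1 (chr14:54987034-54987093) read 10.17, 10.28 and 10.30 on the Prss55-/- arrays and 10.08, 10.13 and 10.11 on the wt arrays, a difference of 0.14 (standard error 0.053). Probe 2 (chr14:54988611-54988670) read 6.31, 5.43 and 5.27 against 7.12, 7.07 and 7.05, a difference of -1.41 (standard error 0.26), or 2.65-fold lower in Prss55-/- testis. Probe 3 (chr14:54988916-54988975) read 8.36, 8.21 and 8.19 against 8.53, 8.55 and 8.47, a difference of -0.26 (standard error 0.064). None of the 3 probes overlapped between genotypes, with the 3′ probes lower and the 5′ probe higher in Prss55-/- testis. Probe 2 lies 245 bases from probe 3, and its difference lay between -1.74 and -1.21 with each array left out in turn and was -0.77 under the normexp correction.

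Lrrc8e, on the plus strand of chromosome 8, had a measured spread of 1.97, or 1.60 with its probe 1 at the bound, with all 3 probes on NM_028175. Among the processing alternatives the spread went down to 0.83. With probes kept only if well above background on all 6 arrays, only probe 2 is left and no spread can be given. Probe 1 (chr8:4226984-4231699) joins genomic stretches that span 4716 bases. It read 6.26, 5.32 and 6.05 on the Prss55-/- arrays and 4.72, 4.79 and 4.55 on the wt arrays. Since it was well above background on 0 of the 3 wt arrays, it was at least 1.76-fold higher in Prss55-/- testis, with measured means of 5.88 ± 0.50 and 4.69 ± 0.12 (SD, n = 3 each).

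The 3′ probes of Lrrc8e lie 541 bases apart. Probe 2 (chr8:4235869-4235928) read 8.02, 8.12 and 7.99 against 7.81, 7.77 and 7.88, a difference of 0.22 (standard error 0.056) without overlap. Probe 3 (chr8:4236470-4236529) read 5.81, 5.01 and 5.13 against 6.39, 5.78 and 6.12, a difference of -0.78 (standard error 0.25). Its genotypes overlapped, by 0.02 between Prss55-/- replicate 1 and wt replicate 2, and 2 of its 3 Prss55-/- arrays were well above background. The 3 probes of Lrrc8e thus gave a higher, a slightly higher and a lower value in Prss55-/- testis along 1 transcript.

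**Figure D3:**
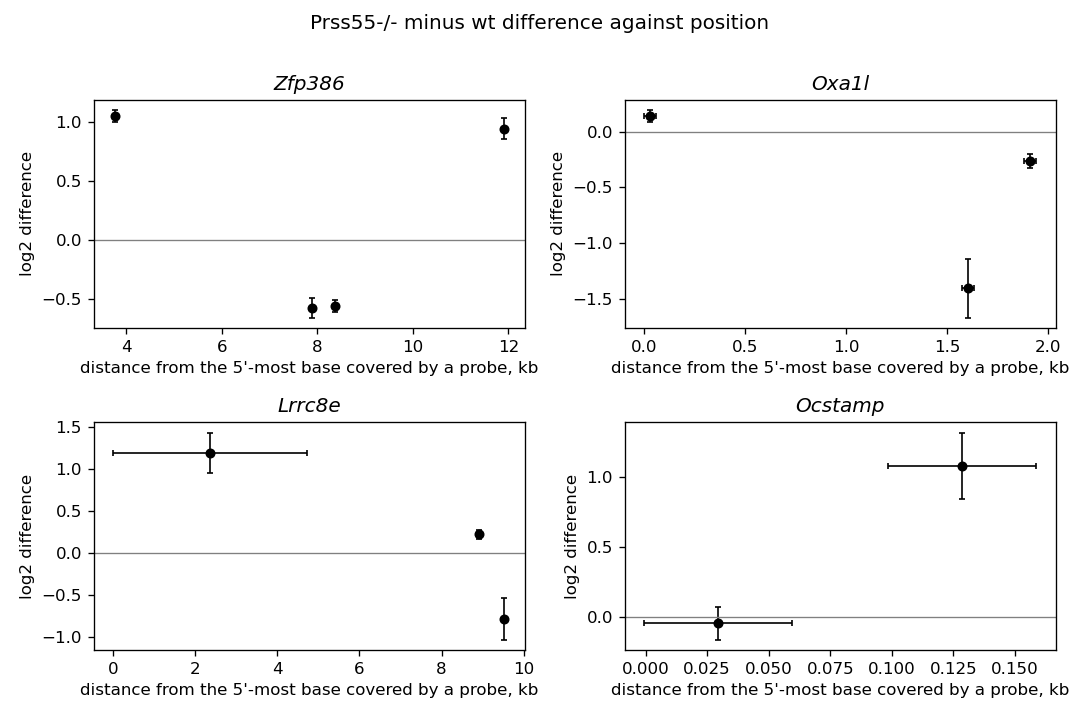
Prss55-/- minus wt log2 difference (vertical axis, bars for the standard error) against distance in kb from the 5′-most base covered by a probe (horizontal axis, bars for the stretch of genome a probe takes up) for the tested probes of Zfp386, Oxa1l, Lrrc8e and Ocstamp. In Zfp386 the outer probes lie above 0 and the inner ones below it, and in Ocstamp probes 39 bases apart differ by 1.12.

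Micall1, on the plus strand of chromosome 15, has 3 probes, all of them higher in Prss55-/- testis without overlap. Probe 1 (chr15:78946299-78946358, GenBank AK031386) read 8.47, 9.11 and 8.89 against 8.36, 8.21 and 8.11, a difference of 0.60 (standard error 0.17). Probe 2 (chr15:78962492-78963451, NM_177461) read 11.40, 11.69 and 11.49 against 10.43, 10.28 and 10.63, a difference of 1.08 (standard error 0.11) or 2.11-fold. Probe 3 (chr15:78967265-78967324, NM_177461) read 12.57, 12.82 and 12.79 against 12.37, 12.40 and 12.41, a difference of 0.33 (standard error 0.076). The disagreement in Micall1 is one of size alone, 0.75 between probes 2 and 3. Its probe 2 was the only one of the 28 that kept a difference of 2-fold or more, 1.03, under the normexp correction.

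Sptb, on the minus strand of chromosome 12, has 4 probes, 3 of them on NM_013675. Probe 4, the 3′-most (chr12:77682089-77682148), read 6.48, 7.34 and 7.35 on the Prss55-/- arrays and 5.89, 5.69 and 6.22 on the wt arrays, a difference of 1.12 (standard error 0.27) or 2.17-fold without overlap. Probe 2 read 5.80, 5.94 and 6.02 against 6.17, 5.83 and 6.17, a difference of -0.14 (standard error 0.11). Probe 3 (GenBank S66283) read 6.24, 7.01 and 7.11 against 7.23, 6.75 and 7.06, a difference of -0.23 (standard error 0.25), and both of these overlapped.

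The 5′ probe of Sptb rested on 1 array. Probe 1 read 5.43, 8.12 and 5.58 on the Prss55-/- arrays and 5.41, 5.38 and 5.66 on the wt arrays, a difference of 0.89 (standard error 0.71). Without Prss55-/- replicate 2 the difference was 0.02. That array was not the outermost Prss55-/- array for the other Sptb probes.

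Signal, spread within a genotype and sequence of the member probes were set beside those of the array, as a description that the choice of wide differences can shape. The probe with the widest difference had the lowest array signal among the tested probes of its gene in 7 of 10 and the highest in 0 of 10, where signal depends on the probe as well as on the transcript. The within-genotype standard deviation was 0.16 at the median of the 28 probes and 0.092 at the median of all tested probes, and it reached 1.08 for Sptb probe 1, above 99.8% of tested probes. The GC content of the 30 probes was 30% to 55% with a median of 41.7%, against 40% for the array. A reading frame without a stop codon was present in 20 of the 30, against 78.3% of all probes. No member probe had a stretch of 20 bases in common with another probe of the array. The part of dim signal, spread or sequence in the differences was not tested.

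Genes that work with the members were tested on the same arrays with limma (adjusted p over the 28606 tested probes, 1.21% of which were called at 0.05, and 1.53% of the 15973 named genes). Of 76 such genes in 10 lists, 69 were tested, 1 rose and 1 fell. Fbln2, a fibulin like Fbln1, read 9.37, 9.26 and 9.34 on the Prss55-/- arrays and 8.46, 8.22 and 8.40 on the wt arrays, and rose by 0.96 (standard error 0.076, limma adjusted p = 0.0076). The limma adjusted p of Fbln2 was 0.060 without Prss55-/- replicate 3. The 8 other tested genes of the Fbln1 list did not pass, among them the basement membrane gene Nid1 with -0.09 (limma adjusted p = 0.48).

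Ank1, the ankyrin that ties spectrin to the red cell membrane, fell by 0.76 at 1 probe (7.17, 7.12 and 6.78 against 7.84, 7.82 and 7.70, limma adjusted p = 0.045). Another Ank1 probe gave 0.32 (limma adjusted p = 0.28), and the first one gave -0.42 under normexp. The call of Ank1 held in 4 of 13 alternatives, with limma adjusted p from 0.035 to 0.18, and was lost when any 1 array other than Prss55-/- replicate 1 was left out. Sptan1, which encodes an alpha-spectrin, differed by -0.06 (limma adjusted p = 0.55) at its brightest probe, and its other tested probes ran from -0.22 to 0.01. The tested probes of the Sptb list, from 10 genes, ran from -1.07 to 0.32, and Ank1 was the only gene called.

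The other 8 lists, with 50 tested genes, held 0 genes called by limma, 14 with an unadjusted p below 0.05 (25.5% of the 15973 named genes had one) and 0 by the methods' t-test after adjustment. The Cog subunits 1 to 4 and 6 to 8 were all tested and their 9 probes differed by -0.12 to 0.06 (lowest limma adjusted p = 0.42), with Cog6 at 14.05 ± 0.10 against 14.17 ± 0.078 (SD, n = 3 each). The channel subunits Lrrc8a to Lrrc8d differed by -0.10 to 0.16 (lowest limma adjusted p = 0.26). The MICAL and endosome recycling genes around Micall1 ran from -0.24 to 0.36 (lowest limma adjusted p = 0.089, 10 tested), and the corepressors of zinc finger proteins, such as Trim28, from -0.15 to 0.09 (lowest 0.24, 5 tested).

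The 7 tested genes of mitochondrial membrane insertion, among them the prohibitin gene Phb, ran from -0.19 to 0.16 (lowest limma adjusted p = 0.17). The 4 tested osteoclast genes, Oscar among them, ran from -0.02 to 0.31 (lowest limma adjusted p = 0.23), while Dcstamp, Atp6v0d2 and Tnfrsf11a did not pass the filter on dim signals. The 7 tested scavenger receptor and iron uptake genes ran from -0.81 to 0.26 (lowest limma adjusted p = 0.22), with the ferritin chain Fth1 at 16.10 ± 0.072 against 16.09 ± 0.068 (SD, n = 3 each). The 6 actin and vesicle motor genes of the Spire1 list ran from -1.14 to 0.39 (lowest limma adjusted p = 0.096), and the lowest was the formin Fmn1 with a standard deviation of 1.7 among the Prss55-/- arrays.

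Genes next to the members on the chromosome were counted too, since the choice did not use them. Within 1 Mb of a member probe, 244 other genes were tested and 15 were called (6.15%, against 1.53% of named genes on the array), with 11 above and 4 below their wt level at the called probe. Among the 15, Cd209g and Apobec3 were higher and passed the filter only through the Prss55-/- arrays. They had 0 and 2 of 3 wt arrays well above background, and their calls are not read as results. Other tested probes exist for 7 of the 15, and in 2 of these, Acin1 and Syne2, some had the opposite sign. With probes kept only if well above background on all 6 arrays, 14 neighbours were called. Without Prss55-/- replicate 2, and without replicate 3, the count was 0. It was 44 without Prss55-/- replicate 1, and it was 1, 3 and 9 without wt replicates 1, 2 and 3.

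Around Scara5, 2 of 20 tested neighbours were called. Pnoc, the precursor of nociceptin, lay 343 kb away and rose by 1.01 (11.20 ± 0.097 against 10.19 ± 0.11, SD, n = 3 each, limma adjusted p = 0.0072). Elp3, the catalytic subunit of Elongator, lay 214 kb away and rose by 0.66 (11.92 ± 0.075 against 11.26 ± 0.046, SD, n = 3 each, limma adjusted p = 0.0098). Elp3 had a limma adjusted p of 0.061 without Prss55-/- replicate 2, 0.061 without replicate 3 and 0.064 without wt replicate 1, and Pnoc one of 0.055 and 0.056 without Prss55-/- replicates 2 and 3. Around Oxa1l, 3 of 31 were called, Mmp14, Acin1 and Homez, each higher at its called probe. The called Acin1 probe gave 0.54, and the 3 other tested Acin1 probes gave -0.58, -0.40 and -0.19. Mmp14, a membrane-bound matrix metalloproteinase, was the nearest at 71.0 kb with 0.56 (limma adjusted p = 0.039) at one probe and 0.04 at the other.

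Called genes also lay near 5 other members, and the nearest of each is given here. Gcat, an enzyme of glycine metabolism 78.5 kb from Micall1, rose by 0.32 (limma adjusted p = 0.033, 4 of 57 called, Apobec3 among them). Fntb, a farnesyltransferase subunit 320 kb from Sptb, fell by 1.08 on the log2 scale (limma adjusted p = 0.046, 2 of 17 called), with -0.54 at its other probe. The difference of Fntb was -0.51 under the normexp correction, and its limma adjusted p was 0.060 with scaling to the 75th percentile and 0.057 with the slide as a block. That block cannot part slide from genotype, since no slide held both genotypes. Ighv1-77, an immunoglobulin segment 189 kb from Zfp386, fell by 0.80 (limma adjusted p = 0.015, 1 of 5 called), and Ttc38, 571 kb from Fbln1, fell by 0.59 (limma adjusted p = 0.048, 2 of 23 called). Ttc38 had -0.34 under normexp (limma adjusted p = 0.062), 0.075 as its limma adjusted p with the 75th percentile and 0.059 with the slide as a block, and that of Gcat was 0.066 under normexp. Cd209g, 92.0 kb from Lrrc8e, passed the filter only through the Prss55-/- arrays, with 0 of 3 wt arrays well above background, so its call (1 of 29) is not read as a result. Its means were 5.30 ± 0.078 and 4.76 ± 0.068 (SD, n = 3 each), a bound of at least 1.18-fold, and its difference was 0.23 under normexp. Each of these 5 calls, and that of Mmp14, was lost when Prss55-/- replicate 2 or 3 or wt replicate 1 was the array left out, and the highest limma adjusted p among these was 0.19. The calls of Gcat, Fntb, Ttc38 and Mmp14 were also lost without wt replicate 2 and without wt replicate 3. That of Cd209g was also lost without wt replicate 2. Spire1, Ocstamp and Cog5 had 0 genes called by limma among 18, 30 and 14 tested neighbours, with 8, 5 and 7 at an unadjusted p below 0.05 (25.5% of named genes) and 0 by the methods' t-test after adjustment.

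**Figure D4:**
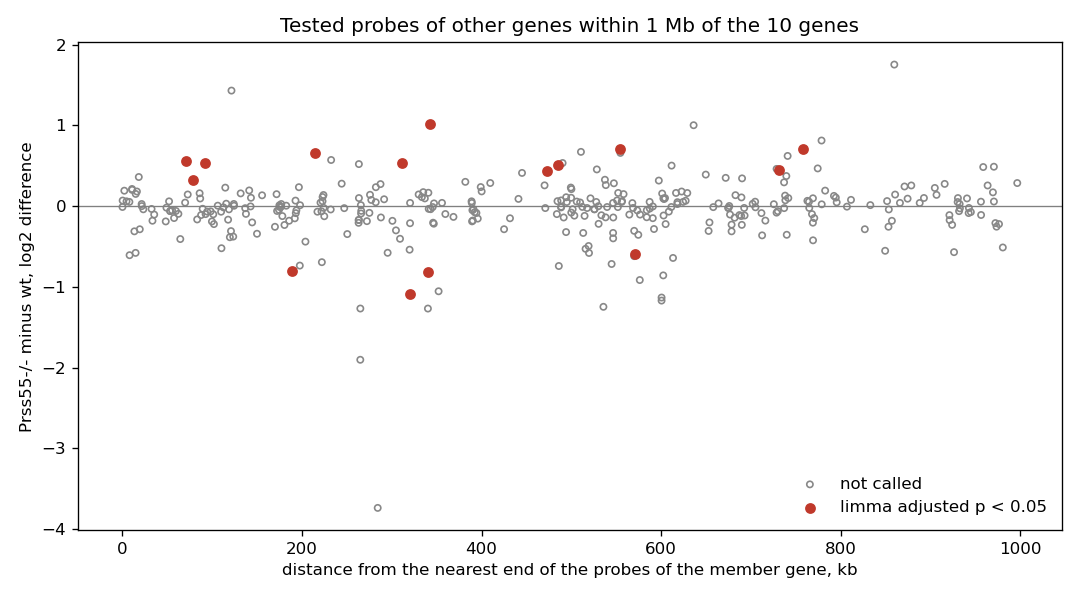
Prss55-/- minus wt log2 difference (vertical axis) of each tested probe of other genes within 1 Mb against its distance in kb from the stretch covered by the probes of a member gene (horizontal axis), with filled circles for limma adjusted p below 0.05. The 15 called genes, Cd209g and Apobec3 counted, lie between 71.0 and 759 kb, and the lowest point, 4930579G18Rik near Oxa1l at -3.74, was not called.

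The probe of another gene that followed the widest member probe most closely over the 6 arrays lay on another chromosome, or had no position, in the 9 genes given here. These were Dlgap1 for Zfp386, Ccdc146 for Lrrc8e, Bcr for Sptb, Nipsnap3a for Fbln1, Gpam for Ocstamp, Alk for Micall1, Cyp4a10 for Cog5, 4930593A02Rik for Oxa1l and Tnfrsf21 for Scara5. Pearson's r lay between 0.994 and 0.999 over 6 arrays, each time the highest among all tested named probes, and it is given as a description. Within the members, r between the widest probe and the other tested probes of its own gene was 0.94 for Fbln1, 0.86 to 0.93 for Micall1 and 0.67 for Cog5, and -0.23 for Ocstamp and -0.70 for Scara5.

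Over the whole array, 69.5% to 72.9% of spots were well above background, 346 probes were called, and 862 were called without Prss55-/- replicate 1. Prss55 itself (chr14:64694275-64694333) read 15.08, 14.95 and 14.93 on the Prss55-/- arrays and 15.87, 15.77 and 16.01 on the wt arrays, a difference of -0.90 (limma adjusted p = 0.010, and 0.068, 0.068 and 0.066 without Prss55-/- replicate 2, 3 and wt replicate 1). The paper reports Prss55 RNA absent from the knockout testis by RT-PCR, and the protein absent too. What this probe reads in the Prss55-/- mice was not tested. Of 55 marker genes for 7 cell types, 46 were tested and 0 called by limma, with 14 at an unadjusted p below 0.05 (25.5% of named genes) and 0 by the methods' t-test after adjustment, and all 10 germ cell markers passed the filter. The log2 of the summed signal of 5 tested Leydig cell markers was 14.96 to 15.65 on the Prss55-/- arrays and 15.64 to 15.84 on the wt arrays, and that of 3 tested epididymis markers 8.65 to 10.61 against 10.82 to 10.91, with Crisp1, Lcn5, Lcn8 and Adam7 not past the filter. Their part in the differences of the members was not tested. In whole testis, fewer cells of a type and less RNA per cell cannot be told apart.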

How the data were processed

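Total RNA of 3 Prss55-/- and 3 wt testes was hybridized to 6 single-dye Agilent arrays. The deposited scanner files, read with Feature Extraction 10.7 per the labels, give a processed signal for each spot, a linear intensity from which the software had removed background. The authors also deposited a matrix of quantile-normalized log2 values, made with GeneSpring, which served as an alternative.

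Probes were taken by their gene name in the scanner files, and positions are those of the file headers' build, mm9, which were not placed in exons or introns. Control and outlier spots were left out, signals below 1 were set to 1, and log2 values were quantile-normalized. Spots of a probe were averaged. A probe was tested where the 3 arrays of 1 genotype or of both had it well above background, with limma 3.58.1 in R 4.3.3 (two-sided, Benjamini-Hochberg over 28606 probes). A gene was called if any probe had an adjusted p below 0.05. Where no array of a genotype was well above background, its level was set per array to the lowest signal well above background, or its own if higher, and the fold was given as a bound. The arrays are separate mice, and the p-values set the genotype difference against the spread between arrays of a genotype, which limma draws towards that of all probes. That difference also holds any effect of the slide, and the number of arrays limits precision. In simulated data of 28604 probes, 150 of 200 changed probes were found, with 7 false calls. The simulation had independent noise and no slide effect, so these rates do not carry over to the arrays, where genotype and slide cannot be told apart.

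The genes, the lists of partner and marker genes and the tests were chosen with earlier results of these data known. Named are all members, every called gene of the lists or the brightest 1 or 2, the nearest called neighbour of each member, the most alike probe, and Prss55. The most alike probe of Spire1 is not reported here. Pnoc, Syne2, Acin1, Homez, Apobec3, 4930579G18Rik, Fmn1, Dcstamp, Atp6v0d2, Tnfrsf11a and the epididymis markers that did not pass were named after their values were seen. Alternatives covered the filter, background correction, scaling, the deposited matrix, blocks and left-out arrays. Summaries used Python 3.11.15, numpy 2.4.6, pandas 2.3.3 and matplotlib 3.10.9.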

Additional observations from a re-analysis of the deposited data

How the results depend on the processing

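Of 361 values of the 28 member probes under the alternatives, 352 kept their sign, and the 9 others belong to 4 probes with small differences (Spire1 probe 3, Sptb probes 2 and 3, Ocstamp probe 1). The widest probe of each gene kept its sign in 128 of 128. Normexp was run with an offset of 50, which by itself draws differences of dim probes towards 0. It left 1 of 10 member probes at 2-fold or more and 1 of 7 genes at a spread of 1. It also brought the genes of the array with such a spread from 60 to 20, and raised the called markers from 0 to 2. Without a filter on dim probes, 140 probes, 1 partner gene, 5 neighbours and 422 genes of that spread were counted, and with probes well above background on all 6 arrays 34 such genes. Scaling to the 75th percentile left 1 partner gene. The slide as a random block left 1 partner gene and 9 neighbours, and a window of 3 Mb gave 32 neighbours. The slide block cannot take a slide effect out of the genotype difference, since no slide held both genotypes. The methods' t-test with Benjamini-Hochberg adjustment called 87 probes. Leaving out 1 array in turn gave 44 to 862 probes called, 79 to 106 genes of that spread, 7 to 10 member probes, 5 to 8 member genes, 0 to 6 partner genes, 0 to 4 markers and 0 to 44 neighbours. The cause was not tested.

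Arrays with the same replicate number did not deviate together (r = -0.054, -0.023 and -0.11). These values cannot show whether the mice were paired. The paper speaks of 3 pairs of wt and Prss55-/- mice, and the labels do not say whether the number marks a pair. With the replicate block, 13 probes, 0 partner genes and 0 neighbours were called, and member probe differences did not move.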
